A study of Saccharomyces cerevisiae with 6 samples.

Results

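The genes described here encode enzymes of the citrate, methylcitrate and glyoxylate cycles of budding yeast, and they were compared between a flor strain and a wine strain. The 8 genes CIT1, CIT2, CIT3, ACO1, ICL1, ICL2, MLS1 and PDH1 were taken by gene symbol from the platform annotation, and each had 1 probe, so they make up 8 of the 6226 features measured. They were selected on their known roles and on the measured flor minus wine difference in these same arrays, so those values below describe them and were not used as evidence about the group.

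Transcripts were measured on 6 arrays of 1 colour, 3 per strain. The flor strain (P3_Kan) is a haploid of mating type alpha that carries a KanMX drug-resistance cassette, and the wine strain (K1_Kan) is a haploid of mating type a, whose Kan suffix the labels do not explain. Flor yeasts form a floating film, the velum, on wine after fermentation, whereas wine yeasts ferment the must. Both strains grew in shaken synthetic wine-like medium at 28 °C to an optical density of 1, and under shaking neither formed a velum. Each strain is represented by 1 haploid line, so strain, mating type and any other genetic difference cannot be told apart.

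Citrate synthases join acetyl-CoA to oxaloacetate, and aconitase turns the citrate into isocitrate, which the TCA cycle oxidises. The glyoxylate cycle bypasses the steps that release carbon dioxide: isocitrate lyase splits isocitrate into succinate and glyoxylate, and malate synthase joins the glyoxylate to a second acetyl-CoA, so that cells living on ethanol or acetate can build sugars. The methylcitrate cycle runs parallel chemistry on propionyl-CoA in mitochondria and ends in pyruvate and succinate. Genes of the glyoxylate cycle are known in laboratory yeast for repression by glucose and activation by Cat8 and Adr1 when ethanol is the carbon source.

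The array values had nearly one distribution, with medians of 8.33 to 8.35 on the log2 intensity scale. Pearson correlations across probes were 0.9971 to 0.9975 among wine arrays and 0.9877 to 0.9971 among flor arrays, where the low end belonged to pairs with flor replicate 1, and 0.9367 to 0.9503 between strains. As a check of the strain labels, 5 of 5 a-specific genes examined were lower in the flor strain and 4 of 4 alpha-specific genes were higher, without overlap. RNA came from whole cultures, so fewer expressing cells and less RNA per cell cannot be told apart.

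Transcripts of 7 of the 8 enzymes were lower in the flor strain, and aconitase was the exception. In order of size, the falls were 40.3-fold for CIT3 and 16.2-fold for PDH1, both of the methylcitrate cycle, 10.6-fold for the peroxisomal citrate synthase CIT2, 6.56-fold for the glyoxylate cycle lyase ICL1 and 4.24-fold for the methylcitrate cycle lyase ICL2. CIT1 (1.74-fold) and MLS1 (1.54-fold) fell least. In the limma fit over all features, 7 of 8 members passed an adjusted p of 0.05 towards lower flor levels and 0 towards higher ones. Of all features 44.1% passed, 23.6% towards lower levels, and nothing is read from the members' count because the choice used this contrast. The same 7 had flor values wholly below the wine values, as did 30.4% of all features (56.1% did not overlap in either direction). The median difference of the 8 genes was −2.40 on the log2 scale, against −0.02 over all features. Differences beyond −1 with an adjusted p under 0.05 were found for 5 of the 8, and for 2.54% of features.

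**Figure D1:**
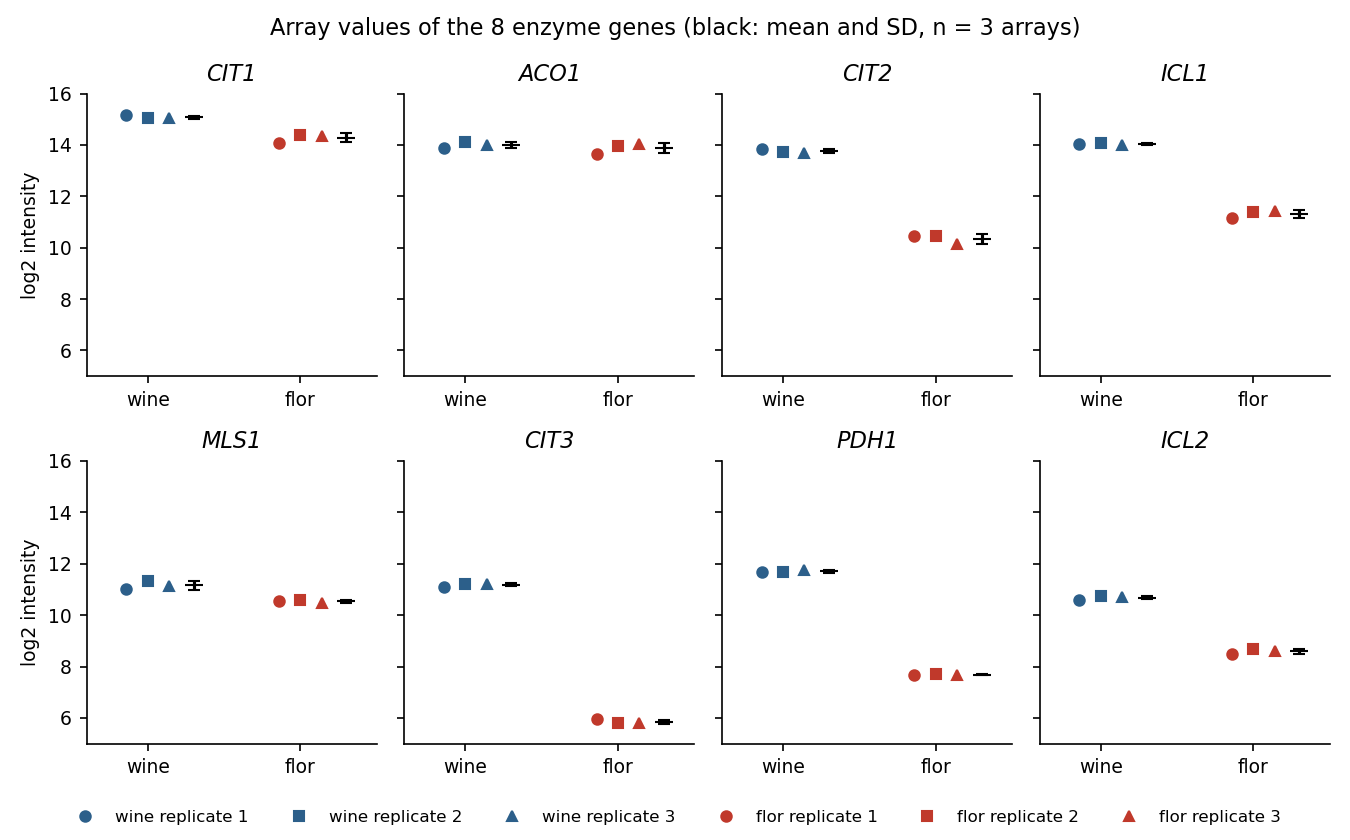
Log2 intensity (vertical axis) of the 8 enzyme genes on each of the 6 arrays, with wine arrays in blue and flor arrays in red, and the mean and SD of 3 arrays in black. Flor and wine arrays are apart for every gene but ACO1, and CIT3 drops from about 11.18 to 5.85.

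Citrate synthase is encoded by 3 genes, and they differed between the strains by very different amounts. CIT1 encodes the mitochondrial enzyme of the TCA cycle. Its log2 intensities were 15.15, 15.04 and 15.05 in wine replicates 1 to 3 and 14.08, 14.40 and 14.34 in flor replicates 1 to 3. All flor arrays were below all wine arrays, with flor replicate 1 the lowest. The difference was −0.80 (SE 0.10). The wine values lay near the highest intensity on any array, 15.88, where a scanner can compress differences, and the part of this in the result was not tested.

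CIT2 encodes the peroxisomal isozyme, which feeds the glyoxylate cycle and is the classic target of retrograde signalling from mitochondria to nucleus. It gave 13.84, 13.73 and 13.69 in wine replicates 1 to 3 and 10.46, 10.46 and 10.13 in flor replicates 1 to 3. A gap of 3.23 log2 units separated the lowest wine array from the highest flor array, against a range of 0.33 among the flor arrays. The difference was −3.40 (SE 0.11).

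CIT3 encodes a mitochondrial synthase that accepts propionyl-CoA as well as acetyl-CoA and so starts the methylcitrate cycle. Wine replicates 1 to 3 gave 11.11, 11.22 and 11.22, and flor replicates 1 to 3 gave 5.95, 5.80 and 5.80. The flor values lay close to the lowest intensity on any array (5.29), whereas the wine values stood well within the range. The difference was −5.33 (SE 0.08, 95% interval of the fold 35.5 to 45.8). Because background limits the lower value, the fold may understate the change. Whether the probe matches the flor sequence was not examined, and a mismatch could make the fold overstated.

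Within each array, the log2 ratio of CIT2 to CIT1 was −1.36 to −1.31 in the wine strain and −4.21 to −3.62 in the flor strain, a shift of −2.60 (SE 0.17). CIT1 was near the highest intensity in the wine strain, so this shift may be overstated, which was not tested and which its SE does not cover. The ratio of CIT3 to CIT2 shifted by a further −1.93 (SE 0.12), from −2.73 to −2.47 in wine arrays to −4.66 to −4.33 in flor arrays. Because CIT3 was near background in the flor strain, that shift may be understated, and its SE does not cover this. These ratios show unequal change among the isozymes and not the relative amounts of their transcripts, since each is a ratio of different probes. CIT1 and CIT2 are close paralogues, and whether either probe also binds the other transcript was not tested.

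ACO1 encodes mitochondrial aconitase, which the TCA cycle needs and which also helps to maintain mitochondrial DNA. It gave 13.89, 14.12 and 13.98 in wine replicates 1 to 3 and 13.64, 13.96 and 14.03 in flor replicates 1 to 3. The strains overlapped: flor replicates 2 and 3 lay within the wine range, and flor replicate 1 lay below it. The difference of −0.12 (SE 0.12) did not pass, and its 95% interval runs from −0.38 to 0.15. Without flor replicate 1, the array that correlated least with the others of its strain, it was 0.00 (SE 0.08). The log2 ratio of ACO1 to CIT1 nevertheless rose from −1.26 to −0.92 in wine arrays to −0.44 to −0.31 in flor arrays, a shift of 0.68 (SE 0.11). It shares the limit of high CIT1 intensity in the wine strain, which its SE does not cover.

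The 2 enzymes specific to the glyoxylate cycle were both lower, but not by the same amount. ICL1 encodes isocitrate lyase, the first enzyme of the bypass. It gave 14.04, 14.06 and 14.01 in wine replicates 1 to 3 and 11.15, 11.40 and 11.41 in flor replicates 1 to 3. The wine arrays lay within 0.05 of each other, the flor arrays within 0.27, and the gap between strains was 2.59. The difference was −2.71 (SE 0.09).

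MLS1 encodes malate synthase, the next enzyme of the bypass. It gave 11.02, 11.34 and 11.12 in wine replicates 1 to 3 and 10.56, 10.60 and 10.46 in flor replicates 1 to 3. The strains did not overlap, but the gap of 0.42 was close to the range of the wine arrays (0.32). The difference was −0.62 (SE 0.10), at −0.88 on slide 1, which held the highest wine and the lowest flor value, and −0.49 on slide 2. The log2 ratio of MLS1 to ICL1 was −3.02 to −2.72 in wine arrays and −0.95 to −0.58 in flor arrays, so the consecutive steps shifted against each other by 2.09 (SE 0.14).

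**Figure D2:**
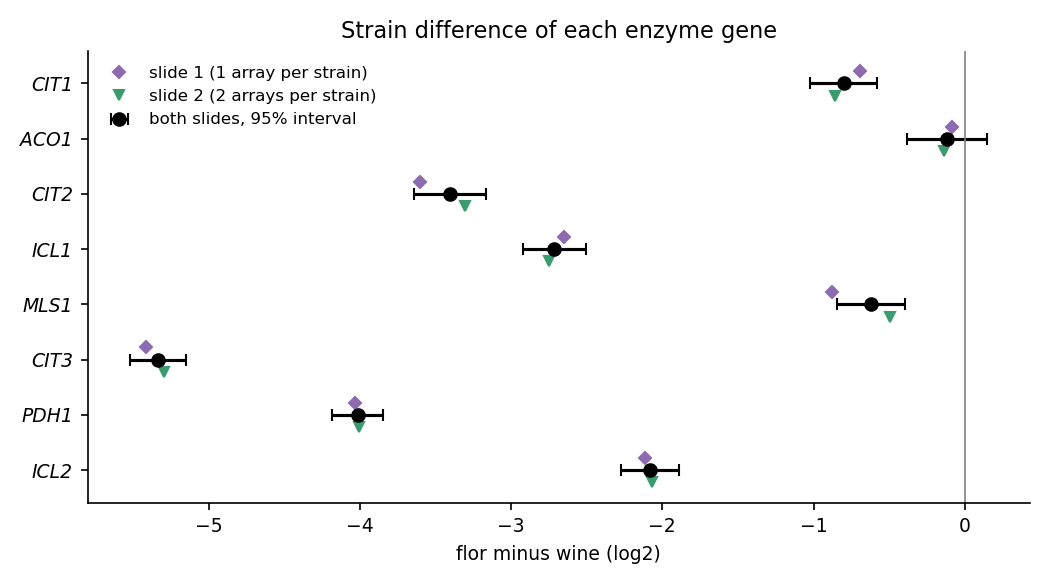
Flor minus wine difference (horizontal axis, log2) of each enzyme gene, with the value from all 6 arrays and its 95% interval in black and the values of the single slides as coloured marks. The slides give the same direction for all 8 genes, with CIT3 at −5.42 and −5.29 and ACO1 at −0.08 and −0.13. The ACO1 interval runs from −0.38 to 0.15. Slide 1 held only flor replicate 3 and wine replicate 2. The slides split the arrays used to choose the genes, so their agreement is a description.

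The methylcitrate cycle follows CIT3 with PDH1 and ICL2. PDH1 encodes a mitochondrial protein related to bacterial 2-methylcitrate dehydratase and is not a subunit of pyruvate dehydrogenase. It gave 11.66, 11.69 and 11.76 in wine replicates 1 to 3 and 7.68, 7.73 and 7.66 in flor replicates 1 to 3. The flor arrays lay within 0.07 of each other, the narrowest spread of the 8 genes in that strain, and the gap between the strains was 3.93. The difference was −4.01 (SE 0.07).

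ICL2 encodes the mitochondrial 2-methylisocitrate lyase, which releases pyruvate and succinate, and it does not replace ICL1 as an isocitrate lyase. Its values were 10.61, 10.74 and 10.72 in wine replicates 1 to 3 and 8.50, 8.69 and 8.62 in flor replicates 1 to 3. The highest flor array was 1.91 below the lowest wine array, with a difference of −2.08 (SE 0.08). The log2 ratio of ICL2 to PDH1 shifted by 1.93 (SE 0.06) in the flor strain. That of PDH1 to CIT3 shifted by 1.32 (SE 0.06), which may be understated because CIT3 was near background in the flor strain, and the SE does not cover this. Between the lyases, the ratio of ICL2 to ICL1 shifted by 0.63 (SE 0.06). None of these ratios overlapped between strains. The shifts restate the unequal strain differences of genes chosen on that contrast, so the lack of overlap describes them and was not used as evidence. How many other gene pairs lack overlap was not examined.

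CIT3, PDH1 and ICL2 lie together on chromosome XVI in the R64 reference (strain S288C), CIT3 next to PDH1 and with 4 genes between CIT3 and ICL2. Those of their neighbours that are named by a probe did not show falls of that size. From 5 genes before CIT3 to 5 after ICL2 the reference lists 13 other protein-coding genes, of which 8 are named by a probe. Of these 8, 4 were higher in the flor strain, 2 lower and 2 did not pass (20.5% and 23.6% of all features were higher and lower). SNF8, an endosomal sorting protein, was highest (0.97, SE 0.09, limma adjusted p = 4.04e-05), followed by ULA1 (0.70), which activates a ubiquitin-like protein, the meiotic cohesin gene REC8 (0.56) and the histone acetyltransferase gene HAT1 (0.29). RPA135, a subunit of RNA polymerase I, and HAA1, an activator of the response to weak acids, were lower (−0.35 each). HAL1 (−0.24), between PDH1 and ICL2, and SUT2 (−0.01) did not pass. YPR003C and AIM45, also between PDH1 and ICL2, are not named by a probe. The gene order in these 2 strains was not examined.

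**Figure D3:**
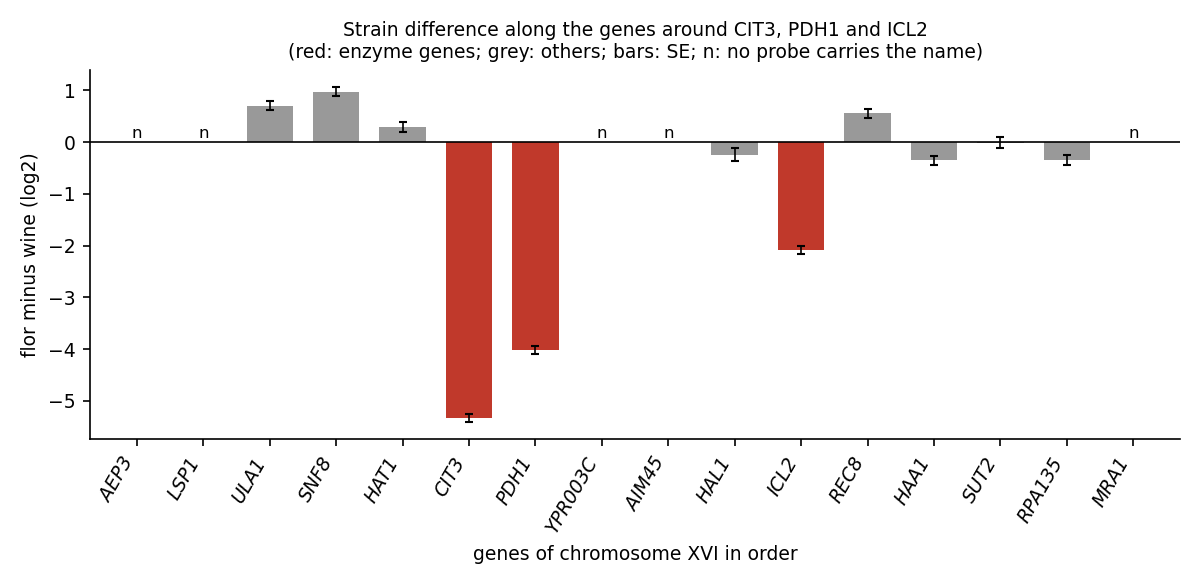
Flor minus wine difference (vertical axis, log2, bars from 0 with SE) of the genes around CIT3, PDH1 and ICL2 in their order along chromosome XVI, with the 3 enzyme genes in red. The 8 other genes named by a probe lie between −0.35 and 0.97, and n marks genes whose name no probe carries.

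How the members varied within a strain was not used to choose them. SD over the 3 arrays was larger in the flor than in the wine strain for 6 of the 8, and for 73.0% of all features. The median SD of the 8 was 0.13 in the flor and 0.07 in the wine strain, against 0.13 and 0.08 over all features. The count and the medians lie near those over all features, so they show nothing particular to the members. Flor replicate 1 was the lowest flor array for CIT1, ACO1, ICL1 and ICL2 and the highest for CIT3. With it left out, the same 7 genes passed, with differences of −0.71 (CIT1), −3.46 (CIT2), −5.38 (CIT3), −2.63 (ICL1), −2.03 (ICL2), −0.63 (MLS1) and −4.01 (PDH1). Of all 6226 features, 1777 were then lower and 1502 higher (1470 and 1276 with all arrays). Nothing is read from the members' count, because the choice used this contrast.

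Among named genes outside the group, those with the most similar pattern were found by the root-mean-square distance between values centred per gene, over the 6 arrays. With 2 strains this mostly reflects a difference of like size. The nearest genes were OPI3 and CLU1 for CIT1 (distances 0.04 and 0.04), STE6 and BAP2 for CIT2 (0.11 and 0.15) and FDH2 and HMRA1 for CIT3 (0.11 and 0.18). STE6, which exports a-factor, and MFA2 differ with mating type, and which gene copy the HMRA1 probe reads was not tested. ICL1 was nearest to YAT2 (0.12) and CWP1 (0.17), ICL2 to the siderophore transporter genes SIT1 (0.05) and ARN1 (0.08), and PDH1 to the amino acid permease gene BAP3 (0.04) and to MFA2 (0.18). MLS1 was nearest to JIP4 (0.06) and COS10 (0.07), and ACO1, which did not pass, to MNS1 (0.02) and CHS6 (0.03). Within the group the closest pair was CIT1 and MLS1 (0.19) and the farthest CIT3 and ACO1 (2.61).

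Genes of other steps that touch these cycles were mostly lower. This list and those below were chosen with earlier results of these data known. Their counts describe the listed genes and were not used as evidence about the group. Of 11 isozymes and side steps, 9 had a named probe, 6 of which were lower and 2 higher in the flor strain, with a median of −0.36 (all features −0.02). Over all features 23.6% were lower and 20.5% higher, so the share of higher genes in the list was near that background. IDP2, the cytosolic NADP-dependent isocitrate dehydrogenase, was at 10.78 ± 0.14 in the flor and 12.37 ± 0.07 in the wine strain (SD, n = 3), a difference of −1.59 (limma adjusted p = 2.71e-06). MDH2, the cytosolic malate dehydrogenase of the glyoxylate cycle, was lower by −0.78 (adjusted p = 0.000124 in limma), IDP1 by −0.44 and IDH2 by −0.41. DAL7, the second malate synthase gene and a close paralogue of MLS1 known for allantoin use, was higher at 7.47 ± 0.08 against 7.01 ± 0.20 (difference 0.46, limma adjusted p = 0.00826). The MLS1 and DAL7 probes thus differed in opposite directions, and whether either also binds the other transcript was not tested. MDH3, the peroxisomal malate dehydrogenase, was higher by 0.29 (limma adjusted p = 0.0411), and IDP3 (−0.14) did not pass.

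Calls close to the threshold were lost with 5 arrays while the differences kept their direction. MDH3 did not pass when any wine array was left out (differences 0.30, 0.34 and 0.24, limma adjusted p = 0.10, 0.059 and 0.15 without replicates 1, 2 and 3) or flor replicate 3 was (0.21, adjusted p = 0.14 in limma), which left 1 gene of the list higher. MDH1 (−0.36) also lost its call when any wine array was dropped (differences −0.36, −0.40 and −0.32, limma adjusted p = 0.076, 0.058 and 0.10 in the same order). IDH1 (−0.33) lost it when flor replicate 2, wine replicate 1 or wine replicate 2 was dropped (differences −0.32, −0.29 and −0.30, adjusted p = 0.073, 0.12 and 0.12 in limma). On slide 2 alone DAL7 and IDP1 did not pass (limma adjusted p = 0.063 and 0.053).

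Of 15 genes of substrate transport and acyl-CoA supply, 13 were lower and 1 higher (23.6% and 20.5% of all features), with a median of −0.69. The carnitine acetyltransferase genes led: YAT1 was lower by −3.53 (limma adjusted p = 3.24e-07), YAT2 by −2.57 and CAT2 by −1.79. JEN1, which imports lactate and pyruvate, was at 10.98 ± 0.17 against 12.60 ± 0.16 (difference −1.62). ACS1, an acetyl-CoA synthetase that also accepts propionate, was at 9.17 ± 0.04 in the flor and 10.69 ± 0.19 in the wine strain (difference −1.52, limma adjusted p = 6.99e-06). CTP1, which encodes the mitochondrial citrate carrier, was the one gene of the list that was higher (0.87, SE 0.16, limma adjusted p = 0.00208). ODC2 (0.17) did not pass, except without flor replicate 2 (limma adjusted p = 0.032), which left 2 higher. YHM2 (−0.35), ALD4 (−0.66) and ALD6 (−0.50) were lower but lost their calls on omission of some single arrays. With single arrays left out, 11 to 13 of the list were lower, as were 1074 to 1777 of all 6226 features.

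Of 14 listed regulators of these genes, 12 had a named probe, of which 3 were higher, 3 lower and 6 did not pass, with a median of −0.0008. These shares are near those over all features, 20.5% higher and 23.6% lower, so the counts say nothing about the regulators as a group. CAT8, an activator of ICL1 and MLS1 transcription, was at 11.45 ± 0.10 in the flor and 11.49 ± 0.06 in the wine strain (difference −0.04, SE 0.08). ADR1, an activator of ethanol and peroxisomal genes, was lower by −1.42 (SE 0.13, limma adjusted p = 5.09e-05), SNF1, the kinase that activates Cat8 and Adr1 when glucose is low, by −0.73 and SIP4, another activator of gluconeogenic genes, by −0.72. The glucose repressor gene MIG1 was at 9.10 ± 0.22 against 7.47 ± 0.19 (difference 1.63, limma adjusted p = 2.13e-05). HXK2, the hexokinase that takes part in glucose repression, was higher by 1.77, and VID24, which targets gluconeogenic enzymes for degradation, by 1.04.

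Retrograde signalling, which controls CIT2, was compared at its regulators and its targets. Of 8 regulators 0 were higher and 1 was lower in limma, against 20.5% and 23.6% of all features. The lower gene was RTG1 (−0.29, adjusted p = 0.0117 in limma), a subunit of the activator. RTG1 lay low in both strains (6.11 ± 0.05 and 6.40 ± 0.02) and did not pass without wine replicate 1 (limma adjusted p = 0.053). RTG3 (−0.12), RTG2 (0.05) and MKS1, the negative regulator (0.18), did not pass. At an unadjusted limma p under 0.05, 1 regulator was higher and 2 lower, against 1477 and 1724 of all 6226 features. Without flor replicate 1, MKS1 was higher (0.22, limma adjusted p = 0.023) and LST8 lower (−0.31, adjusted p = 0.0094 in limma), and without flor replicate 2, BMH1 was lower (−0.63, limma adjusted p = 0.0098).

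The 4 measured targets of this route outside the group were lower (23.6% of all features were): PYC1 (−1.61), which encodes pyruvate carboxylase, DLD3 (−1.47), a cytosolic D-lactate dehydrogenase, and both subunits of NAD-dependent isocitrate dehydrogenase, IDH2 (−0.41) and IDH1 (−0.33). Both IDH genes are also counted among the isozymes above. The IDH1 values overlapped between strains, and its call was lost on omission of single arrays as given above, which left 3 of the 4. DLD3 was at 10.58 ± 0.07 in the flor and 12.05 ± 0.13 in the wine strain. ACO1 and CIT1 belong to the same targets in laboratory strains, at −0.12 and −0.80.

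The HAP complex activates respiratory genes, CIT1 and ACO1 among them. Of 5 listed HAP genes 2 were lower and 1 higher, against 23.6% and 20.5% of all features, and nothing is read from these counts. HAP5 (−0.61) and HAP2 (−0.55), which encode DNA-binding subunits, were lower, HAP4, the regulated activating subunit, was higher (0.27, limma adjusted p = 0.0395), and HAP1 (−0.16), a heme-responsive regulator, and HAP3 (−0.33) did not pass. HAP4 lost its call with fewer arrays, at differences of 0.22, 0.29, 0.22 and 0.26 on omission of flor replicate 2, flor replicate 3, wine replicate 1 and wine replicate 2 (limma adjusted p = 0.11, 0.082, 0.15 and 0.12). HAP3 (limma adjusted p = 0.0551 with all 6 arrays) was lower without flor replicate 1 (−0.48, adjusted p = 0.00014 in limma). It also passed with median centring (limma adjusted p = 0.047), without the dimmest 25% of features (0.048), with array quality weights (0.00027) and with the length trend removed (0.00077), which made 3 HAP genes lower. On slide 2 alone HAP2 did not pass (limma adjusted p = 0.063). Of 7 measured genes of protein import into peroxisomes, the site of CIT2, 0 passed in limma, against 44.1% of all features. At an unadjusted limma p under 0.05 it was also 0, against 1477 features higher and 1724 lower of 6226. The 7 genes ran from −0.20 for PEX13 to 0.13 for PEX14.

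**Figure D4:**
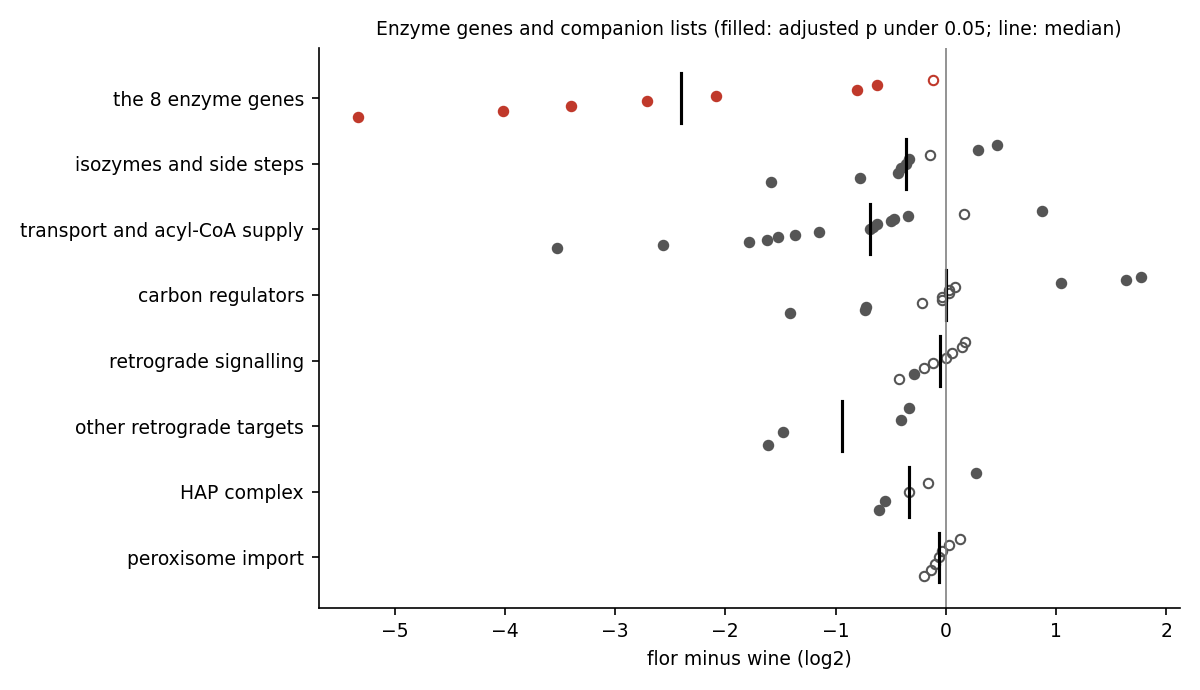
Flor minus wine difference (horizontal axis, log2) of every measured gene of the 8 enzymes (red) and of 7 companion lists (grey), 1 point per gene, filled where the limma adjusted p was under 0.05, with a black line at each list's median. The enzymes have a median of −2.40, and peroxisome import has no filled point (44.1% of all features passed).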

How the data were processed

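RNA labelled with Cy3 was hybridised to Agilent arrays, per the labels' protocols. The values are the authors' deposited log2 intensities of 6227 probes, a scale read from the values (5.29 to 15.88). They were made in R 2.14.2 with limma, per the submitters' processing notes. The columns share nearly one distribution. For background correction, normalization method and filters, nothing is stated in the sources used. No sequence divergence between strain and probe was examined.

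Platform annotation gave 1 symbol for 4061 probes and none for 2166, and 125 symbols were updated through the R64 gene table. The 2 probes of FDH2 were averaged, leaving 6226 features. Strain means were fitted to all 6 arrays with limma 3.58.1 in R 4.3.3 (lmFit, eBayes, two-sided, Benjamini-Hochberg over all features, threshold 0.05). Fold intervals are 95% intervals from moderated standard errors. SE of within-array ratios came from the arrays' SDs, with no test. The fit was tested on simulated data.

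The members and companion lists were chosen with earlier results of these data known. Named were all members, fixed regulators and partner genes, up to 4 genes per list with the largest passing changes in each direction, 2 nearest genes per member, and neighbours on chromosome XVI. MDH1, IDH1, IDP3, ODC2, YHM2, ALD4, ALD6, LST8, BMH1, HAP1, HAP3, PEX13 and PEX14 were named after their values were seen. Slide 1 held flor replicate 3 and wine replicate 2. Replicates are called biological in the labels, without saying more, and p-values measure only the spread between them. Replicate 2 of each strain is marked as technical replicate 2, and only that array was used. Same-numbered arrays correlated in their deviations at 0.37, 0.23 and 0.05, so numbers were not taken as pairs.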

Additional observations from a re-analysis of the deposited data

How the results depend on the processing

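The number of arrays, 3 per strain, limits the precision, and intensity near background limits CIT3 in the flor strain. Of 136 values of the 8 genes under the alternatives, 133 kept their direction and their side of the threshold. The other 3 were of ACO1, which did not pass in any: 0.0033 with array quality weights, 0.031 with the length trend removed and 0.00064 without flor replicate 1, with the cause not tested. The dimness filters, the intensity trend and the slide and replicate blocks left every difference as it was, so only the call could change there. The genes were also chosen on this contrast, so the count of values kept describes them and was not used as evidence. With single arrays left out, ACO1 ran from −0.20 to 0.00064, CIT1 from −0.86 to −0.71 and MLS1 from −0.69 to −0.53. With the replicate number as a block, 7 of the 8 genes passed, and 1393 features were higher and 1580 lower. The block gave 2 retrograde regulators, 4 carbon regulators and 3 HAP genes lower (1, 3 and 2 without it), the last through HAP3 (adjusted p = 0.025 in limma), and same-numbered arrays did not all correlate best with each other. Over all features, 701 were higher and 723 lower on slide 2 alone, 705 and 838 without the dimmest 50% of features, where fewer were tested, and 841 and 920 at an adjusted p under 0.01.

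Over all features, single omissions gave 966 to 1502 higher and 1074 to 1777 lower. The intensity trend gave 1281 and 1469, slide as a block 1200 and 1378, and leaving out the dimmest 25% gave 1073 and 1264. The list counts below change along with these, and nothing is read from them. In the isozyme list, slide 2 alone gave 0 higher and 3 lower, and an adjusted p under 0.01 gave 1 and 3. There, 1 was higher without the dimmest 50% or with the intensity trend, and single omissions gave 1 to 2 higher and 4 to 6 lower. In the transport list, 0 were higher without the dimmest 50%, and 1 to 2 with single omissions. Lower there were 11 to 13 with single omissions, 11 on slide 2 alone and 10 at an adjusted p under 0.01. Of the carbon regulators, 1 was higher without the dimmest 50%. Of the retrograde regulators, 1 was higher and 3 lower with array weights, where 1597 of all features were higher and 1863 lower. With the length trend removed 1 was higher, as were 1445 of all features. Without the dimmest 25% or 50%, on slide 2 or at an adjusted p under 0.01, 0 were lower. Single omissions gave 0 to 1 higher and 0 to 2 lower. Of the HAP genes, 0 were higher with the intensity trend, slide as a block, slide 2 alone or an adjusted p under 0.01, single omissions gave 0 to 1 higher, and 0 were lower without the dimmest 50% and 1 on slide 2.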
